A study of Mus musculus with 8 samples.

Results

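The Polycomb genes examined here are 33 gene symbols that cover the Polycomb repressive complexes PRC1 and PRC2, their accessory subunits and the opposing deubiquitinase. All probes of the array whose annotated symbol is one of these were taken, which gave 43 probes for 30 of the 33 genes, out of 25697 probes and 16593 named genes. Rbbp4, Asxl1 and Rybp had no probe under these symbols. The set was put together around Scmh1, whose difference between the groups had already been seen in these data, so the Scmh1 values are given as a description with no test. The other members were listed by function, with earlier results of these data known.

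RNA came from CD4+GFP+ natural regulatory T cells of B6.FoxP3-GFP mice (strain C57BL/6), in which green fluorescence marks cells that express the lineage regulator Foxp3. Total RNA was measured on 8 single-colour Illumina MouseRef-8 v2.0 bead arrays, 4 titled G-CSF and 4 titled Naive. G-CSF, granulocyte colony-stimulating factor, mobilises blood stem cells, and the series is about T cell responses after such mobilisation. The treatment label of the arrays titled Naive says saline, and dose, schedule, age of the mice and pooling were not given in the sources used here. The detection p-values of the deposited table are in order with the intensities of the other group for all 8 arrays, so one of these sets of columns was placed under the wrong group. Higher and lower below follow the titles of the intensity columns and would turn if those are the ones out of place.

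Polycomb proteins keep genes silent through marks on histones. PRC2 methylates a lysine of histone H3 through Ezh1 or Ezh2, held by Eed, Suz12 and the histone chaperones Rbbp4 and Rbbp7. PRC1 joins ubiquitin to histone H2A through Ring1 or Rnf2, each paired with a PCGF protein, and its canonical form binds the PRC2 mark through a CBX protein and carries PHC and Scm-type subunits such as Scmh1. In regulatory T cells, Ezh2 is known to help keep the cells' identity after activation.

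Between 9588 and 10519 probes of an array were well above background, meaning a detection p-value under 0.01. Median raw intensity was 180.8 on G-CSF replicate 3 and 145 on G-CSF replicate 4, against 117.8 to 125.8 on the other 6 arrays. Values below are log2 intensities after background correction and quantile normalisation, and a probe was tested when at least 4 arrays, of either group, had it well above background. All 8 regulatory T cell and T cell markers, Foxp3 among them, passed this filter. Of 7 neutrophil and precursor markers on the array 0 passed it, and neither did Cd8a, Ms4a1 or Pax5. Cd8b1 and Cd79b, genes of CD8 T cells and of B cells, did pass, at mean log2 intensities of 11.25 and 9.93 in arrays titled G-CSF and 11.57 and 10.01 in those titled Naive.

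The promoters of Scmh1 and of the 2 genes called in the test below, Cbx7 and Bmi1, are printed first, as the 250 bases before the annotated start, 5′ to 3′ on the gene's strand, from RefSeq (GRCm38.p6). Scmh1 lies at chr4:120405098-120405347 (plus strand), Cbx7 at chr15:79932647-79932896 (minus strand) and Bmi1 at chr2:18676768-18677017 (plus strand). Capitals mark matches, on either strand and with overlaps allowed, to the E-box CACGTG, the GC box GGGCGG or the E2F-type motif TTCCCGC.
Scmh1: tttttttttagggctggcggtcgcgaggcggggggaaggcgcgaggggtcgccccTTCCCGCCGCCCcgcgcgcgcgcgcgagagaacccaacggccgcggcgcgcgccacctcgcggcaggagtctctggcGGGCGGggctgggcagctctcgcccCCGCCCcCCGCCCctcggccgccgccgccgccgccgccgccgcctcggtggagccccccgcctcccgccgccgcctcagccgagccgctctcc
Cbx7: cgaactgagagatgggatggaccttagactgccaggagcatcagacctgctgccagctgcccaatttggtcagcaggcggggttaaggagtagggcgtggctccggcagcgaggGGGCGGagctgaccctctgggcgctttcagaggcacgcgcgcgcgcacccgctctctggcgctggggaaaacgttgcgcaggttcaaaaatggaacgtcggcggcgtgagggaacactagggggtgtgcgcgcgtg
Bmi1: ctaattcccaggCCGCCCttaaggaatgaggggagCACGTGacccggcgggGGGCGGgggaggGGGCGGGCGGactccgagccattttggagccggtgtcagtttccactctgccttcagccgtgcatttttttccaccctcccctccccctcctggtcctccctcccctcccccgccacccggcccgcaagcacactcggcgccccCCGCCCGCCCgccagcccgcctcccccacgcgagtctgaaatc

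The GC box occurs 4 times in the Scmh1 window, 1 time in that of Cbx7 and 6 times in that of Bmi1. An E-box is present in the Bmi1 window and the E2F-type motif in the Scmh1 window, where it overlaps a GC box. Among the same windows of 32851 RefSeq promoters, 32.7% hold a GC box, 6.02% an E-box and 3.82% the E2F-type motif. Promoters were listed for 29 of the 33 genes. Of their first listed windows, 75.9% hold a GC box, 27.6% an E-box and 13.8% the E2F-type motif. The first listed window of a member had a median of 22 CpG dinucleotides, against 6 over all promoters, and 27 of the 29 lay above that overall median. Scmh1 had 45, more than 99.6% of all promoters, and Bap1 had 43, while Cbx7 had 23 and Bmi1 21. A second start listed for Scmh1 had 0 CpG dinucleotides, and which start the array's probe reports is not given in the files. These matches are letters in a window and say nothing of the factors that bind there.

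Both complexes were represented among the measured genes, but not every subunit was. At least 1 probe passed the filter for 22 of the 30 genes, 26 probes in all, and 22 of these probes were well above background on all 8 arrays. Ezh1, Jarid2, Phf1, Cbx2, Cbx6, Pcgf2, Phc3 and Kdm2b had no probe that passed. Of the 17 probes left out, 13 were well above background on 0 arrays. The other 4 were both Ezh1 probes, 1 of 3 Ezh2 probes and the Cbx2 probe. One probe of Ezh1, the alternative methyltransferase, and the probe of Cbx2, a CBX reader, were each well above background on 3 arrays titled G-CSF and 0 titled Naive, short of the filter. The other Ezh1 probe was so on 1 array of each group, with means of 5.95 in arrays titled G-CSF and 6.08 in those titled Naive.

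**Figure D1:**
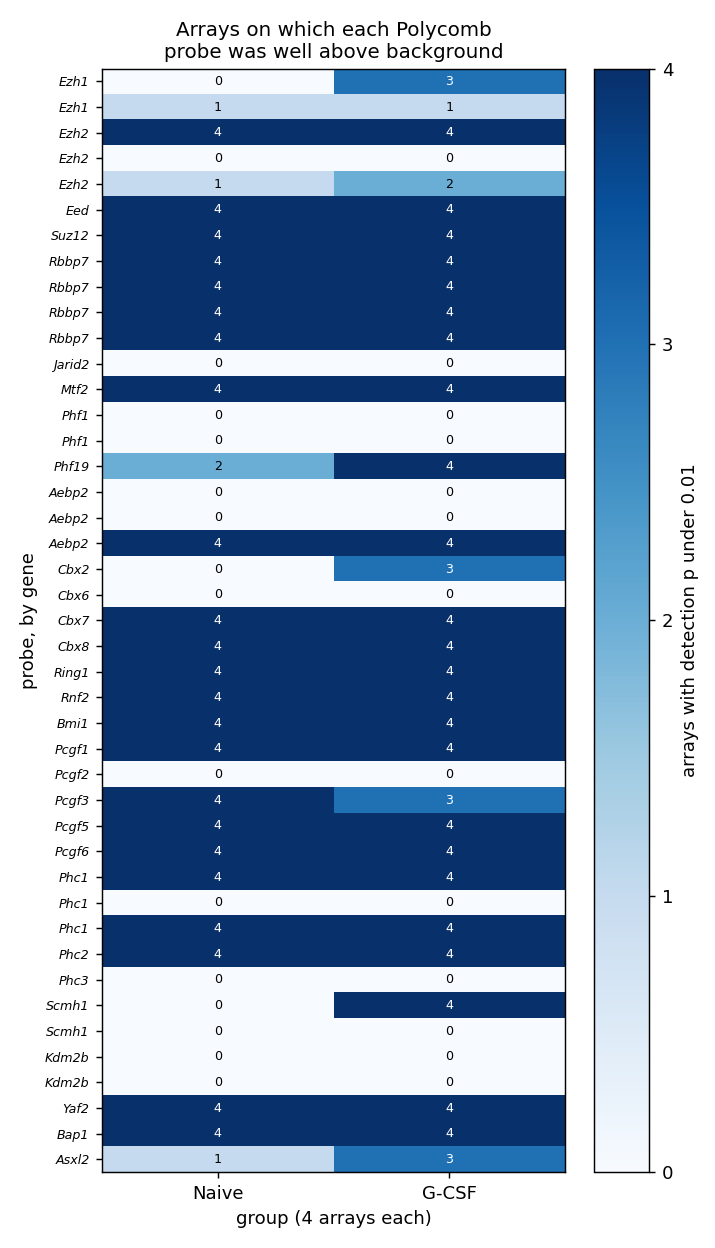
Number of arrays per group, from 0 to 4 and written in each cell, on which each of the 43 Polycomb probes had a detection p-value under 0.01; rows are probes in order of complex part and columns are the 2 groups. Most rows are 4 and 4 or 0 and 0, and Scmh1 has the row with 4 arrays titled G-CSF against 0 titled Naive.

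Cbx7 rose and Bmi1 fell in arrays titled G-CSF, and these were the only members that passed the threshold, Scmh1 being given no test. The test was limma's moderated fit over 10205 probes with Benjamini-Hochberg adjustment, called at an adjusted p under 0.05. Scmh1 left aside, it called 2 of the 25 tested member probes, or 8%, 1 higher and 1 lower. Over all probes 2.2% were called (0.951% higher and 1.24% lower). No statement about the set is drawn from its 8%, because the set was proposed with these results known. The median difference over these 25 probes was -0.05, beside -0.01 over all tested probes, with 12 positive and 13 negative. An unadjusted p under 0.05 was found for 8 of the 25 and for 24.9% of all tested probes. That 24.9% is the background for every such count below that comes from this fit. Because the filter counts arrays of either group, probes that passed only through the group where they are brighter are among those tested.

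Scmh1 encodes an Scm-type protein that joins PRC1 by binding PHC proteins. Its log2 intensities were 6.43, 6.48, 7.34 and 7.16 on G-CSF replicates 1 to 4 and 5.99, 5.71, 5.36 and 5.62 on Naive replicates 1 to 4. Every array titled G-CSF lay above every array titled Naive, with the lowest and highest of the 2 groups 0.44 apart. The probe was well above background on all 4 arrays titled G-CSF and on 0 titled Naive. On the background-corrected scale used here it was at least 1.5-fold higher in arrays titled G-CSF, the Naive level being only a bound. That bound holds for this processing and these 8 arrays only. The normalised means were 6.85 ± 0.46 and 5.67 ± 0.26 (log2, SD, n = 4 each), 1.18 apart, with the Naive mean made of values not well above background. The means were 0.79 apart without G-CSF replicates 3 and 4, the 2 brightest arrays, and 0.53 apart with no background correction. A second Scmh1 probe stayed short of that detection limit on all 8 arrays (4.82 to 4.999 in arrays titled G-CSF and 4.56 to 4.72 in those titled Naive).

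Cbx7 encodes a reader of the PRC2 mark that brings canonical PRC1 to chromatin and is known as a repressor of the Cdkn2a locus. It had 10.37, 10.78, 11.25 and 11.25 on G-CSF replicates 1 to 4 and 10.20, 9.70, 9.84 and 9.77 on Naive replicates 1 to 4. The groups did not overlap, and the 2 brightest arrays, G-CSF replicates 3 and 4, were its highest. The rise was 1.04 ± 0.21 in log2 units (SE, 4 arrays per group, limma adjusted p = 0.0471), or 2.05-fold. In bulk RNA such as this, a change in RNA per cell and a change in the mix of cells cannot be told apart. The call was lost without any one of G-CSF replicates 2, 3 and 4 and Naive replicates 2, 3 and 4 (adjusted p from 0.078 to 0.164), and kept without G-CSF replicate 1 (0.023) or Naive replicate 1 (0.0186). Without both G-CSF replicates 3 and 4 the difference was 0.70 ± 0.19 (SE; adjusted p = 0.248), and the replicate number as a block gave an adjusted p of 0.0864.

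Bmi1 encodes PCGF4, a PCGF partner of the RING ligases in canonical PRC1, known for stem cell self-renewal and likewise for repressing Cdkn2a. It had 7.07, 7.27, 7.14 and 6.95 on G-CSF replicates 1 to 4 and 7.68, 8.01, 7.87 and 7.61 on Naive replicates 1 to 4. The groups lay 0.34 apart without overlap, and the G-CSF replicates 3 and 4 did not stand apart from the other 2. The difference was -0.69 ± 0.14 in log2 units (SE, 4 arrays per group, limma adjusted p = 0.0471), with Naive 1.61-fold above G-CSF. Leaving out the same 6 arrays one at a time ended this call too (adjusted p from 0.0747 to 0.164), while it held without G-CSF replicate 1 (0.0409) or Naive replicate 1 (0.0211). Without G-CSF replicates 3 and 4 the difference was -0.62 ± 0.16 (SE; adjusted p = 0.246), the replicate block gave 0.0864, and median scaling of the arrays gave -0.37 (adjusted p = 0.135).

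**Figure D2:**
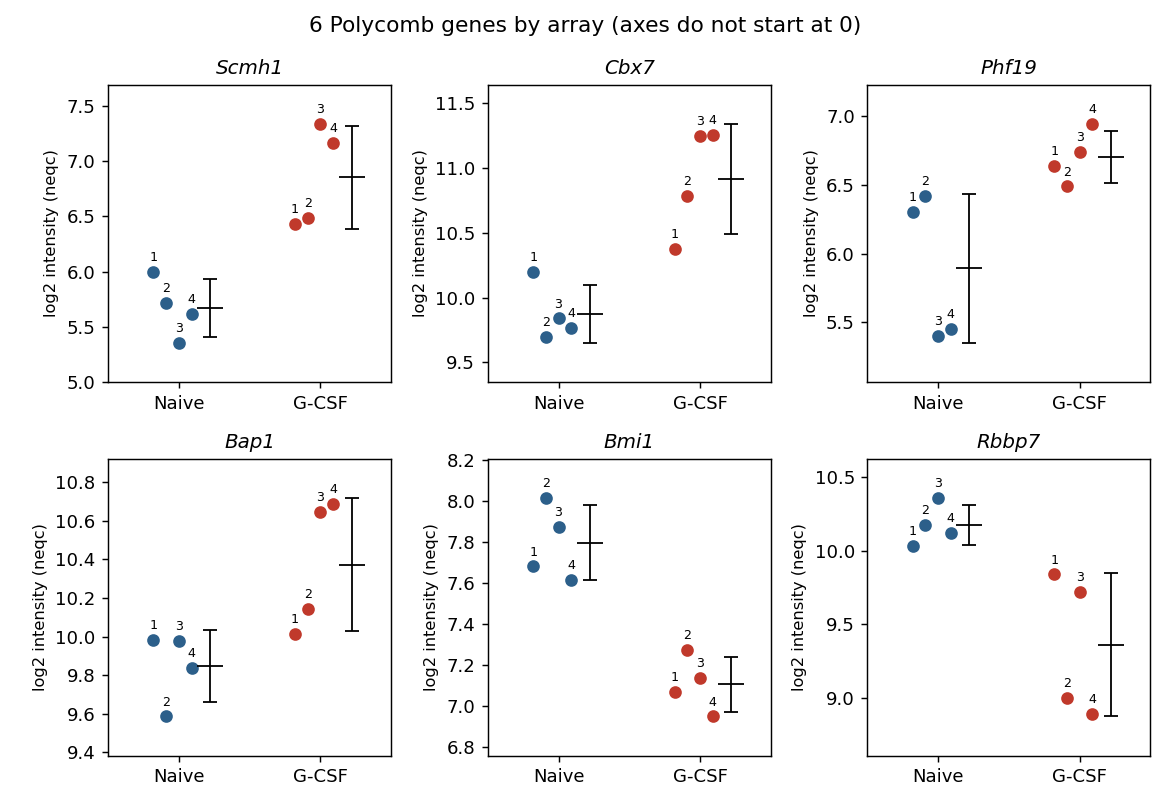
Log2 intensity (neqc scale, axes not from 0) of 6 Polycomb genes on each array, from each gene's brightest probe that passed the filter. Points are arrays numbered by replicate, and the bar beside them is the group mean with its SD (n = 4). The groups do not overlap in any panel, with Scmh1, Cbx7, Phf19 and Bap1 higher and Bmi1 and Rbbp7 lower in arrays titled G-CSF.

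Leaving out Scmh1, groups that do not overlap were found for 7 of 25 tested member probes, 3 higher and 4 lower, or 28%, where 13.6% of all tested probes had such groups (6.78% higher and 6.85% lower). These were the probes of Cbx7 and Bmi1 and, short of the threshold, those of Phf19 and Bap1 and 3 probes of the single gene Rbbp7. Nothing about the set is read from this share either.

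Among the PRC2 core genes, 0 of 7 tested probes were called by limma, with 3 at an unadjusted p under 0.05, all of them Rbbp7. Rbbp7 encodes a histone-binding WD-repeat chaperone that also serves other histone-modifying complexes. On its brightest probe it had 9.84, 9.001, 9.72 and 8.89 on G-CSF replicates 1 to 4 and 10.03, 10.18, 10.36 and 10.12 on Naive replicates 1 to 4. G-CSF replicates 2 and 4 were the low ones, while the Naive arrays lay close together. The difference was -0.81 ± 0.22 (log2, SE, n = 4 per group; limma adjusted p = 0.0707).

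A second Rbbp7 probe had 9.52, 8.90, 9.24 and 8.50 on G-CSF replicates 1 to 4 and 9.66, 9.86, 9.96 and 10.14 on Naive replicates 1 to 4. Another Rbbp7 probe had 9.56, 8.96, 9.42 and 8.57 in the first group and 9.93, 10.05, 9.99 and 9.89 in the second. In both, G-CSF replicates 2 and 4 were again the lowest arrays and the groups did not overlap. These 2 probes gave -0.87 and -0.84 (limma adjusted p = 0.0589 for each), and the dimmest of the 4 gave -0.08 (0.767). The 3 brighter probes moved together over the 8 arrays, with pairwise Pearson correlations of 0.955 to 0.977, while the dimmest had correlations of -0.102 to 0.118 with them. These correlations describe 8 arrays in 2 groups and share the labelled RNA of each array. Without G-CSF replicates 3 and 4 the 3 brighter probes had -0.70, -0.71 and -0.75. They passed the threshold without G-CSF replicate 1 (adjusted p of 0.0312, 0.0325 and 0.0349), and 2 of the 3 did so without Naive replicate 1.

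**Figure D3:**
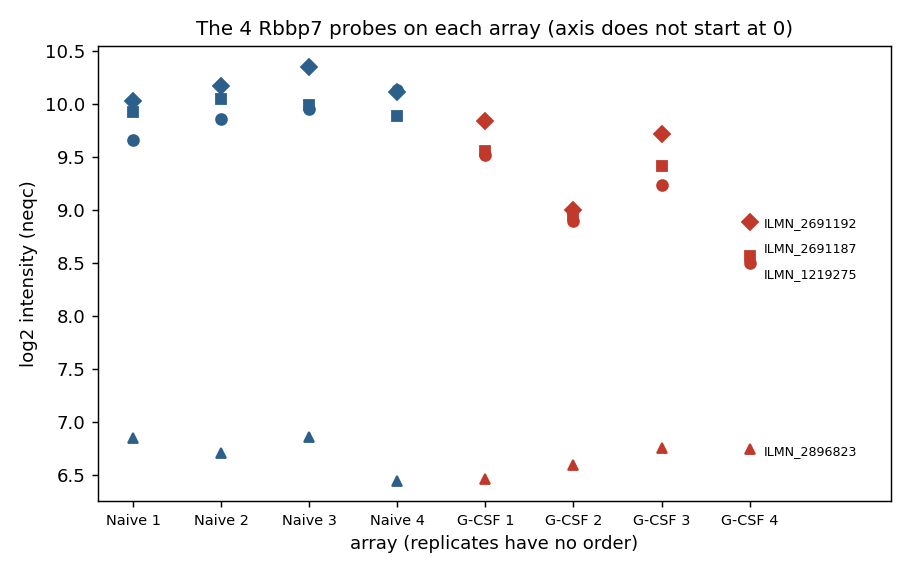
Log2 intensity (neqc scale, axis not from 0) of the 4 Rbbp7 probes on each array, 1 marker shape per probe, with Naive arrays in blue and G-CSF arrays in red. The 3 brighter probes lie between 9.66 and 10.36 in the Naive arrays and between 8.50 and 9.84 in the G-CSF arrays, while the dimmest stays between 6.45 and 6.86 in all 8.

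Suz12, the scaffold of PRC2, had 12.48, 12.62, 12.38 and 12.47 on G-CSF replicates 1 to 4 and 12.97, 12.52, 12.85 and 12.73 on Naive replicates 1 to 4. The groups overlapped through Naive replicate 2, and the difference was -0.28 ± 0.14 (log2, SE; limma adjusted p = 0.246). Ezh2, the main methyltransferase of dividing cells, had -0.23 ± 0.17 (adjusted p = 0.41) on the 1 of its 3 probes that passed the filter, with group ranges of 8.49 to 9.03 and 8.83 to 9.20. Eed, which reads the mark and stimulates the enzyme, had 0.27 ± 0.14 (adjusted p = 0.259), with the G-CSF arrays between 10.53 and 10.63 and the Naive arrays between 10.04 and 10.58. None of these 3 differences passed the test, so no direction is read from their signs. With the Rbbp7 probes included, 6 of the 7 tested core probes had a negative difference and 1 a positive one.

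PRC2 accessory proteins decide where the complex binds. Phf19, a Polycomb-like protein that recognises a methylated lysine of active genes, had 6.64, 6.49, 6.74 and 6.94 on G-CSF replicates 1 to 4 and 6.30, 6.42, 5.40 and 5.45 on Naive replicates 1 to 4. The Naive arrays split into a higher and a lower pair, with the probe well above background on 2 of the 4, and the gap between the groups was 0.07. The difference was 0.81 ± 0.24 (log2, SE; limma adjusted p = 0.0857). It passed the threshold without Naive replicate 1 (0.0427), under median scaling (0.0459) and with array weights (0.00303). Those settings called 1089, 856 and 3776 probes in all, against 224 with the main fit, and 810 of the 856 were higher. Mtf2, a second Polycomb-like protein, had 9.37, 9.54, 9.75 and 9.63 on G-CSF replicates 1 to 4 and 8.99, 9.44, 9.45 and 9.11 on Naive replicates 1 to 4. These groups overlapped, with a difference of 0.32 ± 0.16 (adjusted p = 0.227). Aebp2, a DNA-binding cofactor, had 0.02 ± 0.21 (adjusted p = 0.963) on 1 of 3 probes. In the accessory group 0 of 3 tested probes were called by limma, with 1 at an unadjusted p under 0.05.

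Of the CBX readers, Cbx8 was the other one measured, with 8.48 to 8.66 in arrays titled G-CSF and 7.85 to 8.56 in those titled Naive. Its difference of 0.25 ± 0.17 (log2, SE; limma adjusted p = 0.377) did not pass. Whether the Cbx7 and Cbx8 differences differ from each other was not tested.

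The ubiquitin ligases Ring1 and Rnf2 had 0.01 ± 0.16 and -0.05 ± 0.18 (log2, SE; limma adjusted p = 0.983 and 0.892). Pcgf1, Pcgf3, Pcgf5 and Pcgf6 pair with these ligases in variant PRC1 complexes. Pcgf5 had 11.48, 11.41, 11.16 and 11.24 on G-CSF replicates 1 to 4 and 11.52, 11.40, 11.61 and 11.42 on Naive replicates 1 to 4, with overlapping groups and -0.16 ± 0.13 (adjusted p = 0.455). Pcgf3 had 6.34, 6.96, 6.10 and 6.00 on G-CSF replicates 1 to 4 and 6.71 to 7.03 in arrays titled Naive. Its difference of -0.55 ± 0.21 (adjusted p = 0.14) was -0.25 without G-CSF replicates 3 and 4. Pcgf1 had 0.04 ± 0.12 (adjusted p = 0.873) and Pcgf6 0.03 ± 0.18 (0.921). In Pcgf6 the G-CSF arrays split, with 10.01 and 9.88 on replicates 3 and 4 and 9.35 and 9.33 on replicates 1 and 2, and the Naive arrays lay between them at 9.48 to 9.74.

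The PHC proteins polymerise through their SAM domains and hold canonical PRC1 together, and they are the binding partners of Scmh1. Phc2 had 11.90, 11.90, 10.72 and 11.08 on G-CSF replicates 1 to 4 and 11.77, 11.79, 11.72 and 11.62 on Naive replicates 1 to 4. The G-CSF arrays lay on both sides of the Naive arrays, so the difference of -0.32 ± 0.25 (log2, SE; limma adjusted p = 0.435) became 0.17 without replicates 3 and 4. Phc1 disagreed between its 2 tested probes, with 0.26 ± 0.27 on the brighter and -0.17 ± 0.30 on the other (adjusted p = 0.561 and 0.744). The 2 Phc1 probes had a Pearson correlation of 0.762 over the 8 arrays, and Naive replicate 1 was the highest array for both, at 11.02 and 9.42.

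Yaf2, which takes the place of CBX proteins in variant PRC1, was the 1 tested gene of that group, with 8.86, 8.89, 8.91 and 9.04 on G-CSF replicates 1 to 4 and 8.88, 9.42, 9.17 and 9.20 on Naive replicates 1 to 4. Only Naive replicate 1 lay within the G-CSF range, and the difference was -0.24 ± 0.15 (log2, SE; limma adjusted p = 0.315). Bap1 removes the ubiquitin that PRC1 adds to histone H2A, working with an ASXL protein. It had 10.01, 10.14, 10.65 and 10.69 on G-CSF replicates 1 to 4 and 9.98, 9.59, 9.98 and 9.84 on Naive replicates 1 to 4. The groups were 0.03 apart, with the 2 brightest arrays highest, and the difference was 0.53 ± 0.19 (adjusted p = 0.123). It was 0.23 without those arrays, 0.87 (adjusted p = 0.0488) under median scaling and 0.67 (adjusted p = 0.00669) with array weights. Asxl2, its cofactor, was well above background on 3 arrays titled G-CSF and 1 titled Naive and had 0.33 ± 0.17 (adjusted p = 0.242).

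**Figure D4:**
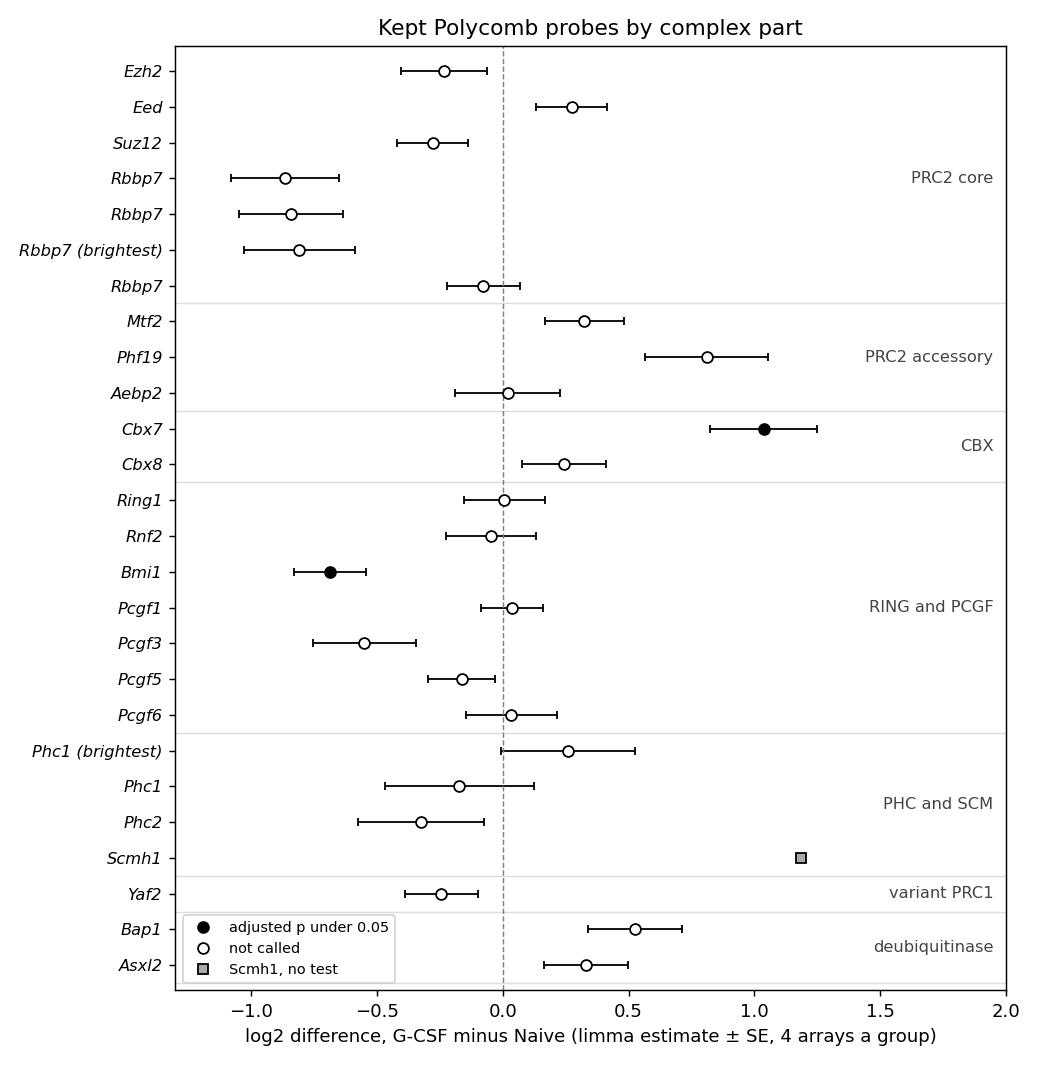
Log2 difference, G-CSF minus Naive, for the 26 Polycomb probes that passed the filter, grouped by complex part. Bars are the SE from limma (4 arrays a group). Filled circles are probes at an adjusted p under 0.05 and open circles are other probes. The grey square is Scmh1, given with no test or SE because its difference had already been seen in these data. Cbx7 lies at 1.04, Bmi1 at -0.69 and 3 of 4 Rbbp7 probes between -0.87 and -0.81.

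The 2 brightest arrays, G-CSF replicates 3 and 4, are in the same group, so brightness is partly confounded with group. They were the highest pair of the 8 arrays for 8 of the 26 member probes (30.8%), Scmh1 among them. They were the lowest pair for 5 (19.2%), beside 20.5% and 18.2% of all tested probes. Nothing about the set is read from these shares. Without these 2 arrays, 22 of the 26 differences had the same sign as with all 8. In that fit limma called 0 of 10205 probes, with 1439 at an unadjusted p under 0.05 (14.1%), and 0 members, with 6 of the 25 other than Scmh1 at such a p. Probes that changed sign were those of Aebp2, Pcgf6, Phc2 and the dimmer tested probe of Phc1.

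**Figure D5:**
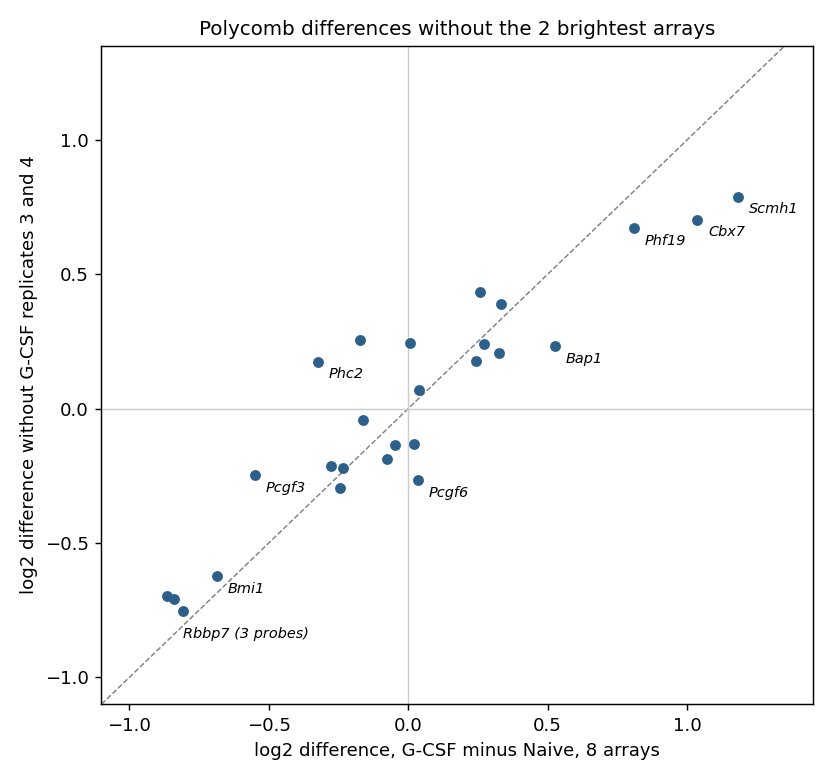
Log2 difference, G-CSF minus Naive, of the 26 Polycomb probes that passed the filter. The horizontal axis has all 8 arrays and the vertical axis leaves out G-CSF replicates 3 and 4, with the line of equal values dashed. Scmh1 goes from 1.18 to 0.79 and Cbx7 from 1.04 to 0.70, while Bmi1 stays near the line with -0.69 and -0.62, and Phc2 changes sign.

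Markers of other cells also differed in level between arrays. The dendritic cell markers Itgax and Flt3 were not detected on any array. All 3 listed class II genes, which mark dendritic and B cells, were measured. Their summed normalised intensity was 642 to 1089 in arrays titled G-CSF and 872 to 5554 in those titled Naive, the highest being Naive replicates 1 (5554) and 2 (2355). Monocyte and macrophage genes, 4 of 5 measured with Cd14 left out, summed to 1785 to 3137 in arrays titled G-CSF and 1144 to 2297 in those titled Naive. Erythroid genes summed to 561 to 1533 and 330 to 814 over 2 of 3 measured, and genes of CD8 T and NK cells to 3004 to 4483 and 4137 to 5039 over 3 of 5. The part of these cells in the values of Cbx7, Bmi1 and Scmh1 was not tested.

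Other proteins that work with Polycomb complexes were measured for 20 of 27 listed genes on the array, and limma called 0, with 5 at an unadjusted p under 0.05 (24.9% over all probes). Of the 20, 11 differences were positive and the median was 0.06, and without the 2 brightest arrays 16 were positive with a median of 0.10. The list was chosen with earlier results of these data known, so nothing about it is read from these signs. The smallest p-values were those of L3mbtl2, an MBT-domain subunit of variant PRC1 (0.65, limma adjusted p = 0.0626), and Mga, a DNA-binding subunit of the same complex (0.49, adjusted p = 0.116).

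Demethylases that remove the PRC2 mark were listed together with Trithorax group genes, which oppose Polycomb, and chromatin remodellers such as Chd4. Of the 16 measured genes of this list limma called 0, with 6 at an unadjusted p under 0.05. A positive difference was found for 14 of the 16, beside 49.5% of all tested probes, with a median of 0.20 beside -0.01 over all tested probes. Without the 2 brightest arrays it was positive for 13, with a median of 0.42 beside 0.01 over all tested probes. This list too was chosen with earlier results of these data known, so nothing about it is read from these signs. The Naive arrays were not alike in these genes. Their summed normalised intensity was 32769 on Naive replicate 1, above the 27490 to 31677 of arrays titled G-CSF. On Naive replicates 2, 3 and 4 it was 22693, 24305 and 24373. Men1, the menin subunit of the MLL complexes, had 0.72 (adjusted p = 0.0554) and Smarca4, the BRG1 remodelling enzyme, 0.76 (adjusted p = 0.0677). Genes known to be repressed by Polycomb were measured for 12 of 25 on the array. Of these, 1 was called higher (Tbx21, the gene of T-bet, 1.14, limma adjusted p = 0.0462) and 1 lower (Il10, the gene of a suppressive cytokine, -1.46, adjusted p = 0.0253), where 0.951% of all probes were called higher and 1.24% lower. The median of the 12 was -0.07, and -0.18 without the 2 brightest arrays. This list was chosen with earlier results of these data known, so no statement about it is drawn from these calls. Cdkn2a, singled out after its values were seen because Cbx7 and Bmi1 are known to repress it, was above background on 0 arrays with each of its 2 probes.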

How the data were processed

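RNA of sorted mouse regulatory T cells was measured on 8 single-colour bead arrays. Probe intensities and detection p-values were deposited unnormalised, made with GenomeStudio per the submitters' processing notes (version not given). The second deposited table holds log2 values with no steps stated for them. Recomputation from the intensities, with quantile normalisation and centring of each probe on its median, matched them with an SD of at most 1.109e-04, so their scale and direction are those of the intensities and their column medians lay between -0.00488 and 0.00568.

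Brighter probes of an array must have lower or equal detection p-values. This held for 0 of 8 arrays with the p-values standing next to their intensities (3.76% to 9.31% of steps against the order, tolerance 1e-04), and for 8 of 8 with those next to the other group's array of equal number. The p-values were therefore exchanged between the groups, and group titles of the intensities were kept.

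Intensities were processed with neqc in limma 3.58.1 (R 4.3.3; normexp background correction, quantile normalisation, log2, offset of 16). The 10205 probes that passed a detection p-value of 0.01 in 4 or more arrays were kept, then fitted with lmFit and eBayes and adjusted by Benjamini-Hochberg, checked on simulated data. A gene's probe was its brightest kept one. The bound for Scmh1 takes as each Naive array's level the dimmest detected intensity, or the Scmh1 value where that is higher. Symbols came from the platform annotation (23978 probes with 1 symbol, 0 with several, 1719 unnamed), and 0 changed in RefSeq. Named members were those with non-overlapping groups, called, or brightest in their complex part, with the rest by value. The members, the lists and some alternatives were chosen with earlier results of these data known. The labels do not tie samples to separate mice, so the p-values cover the spread among these samples only, and that spread may be technical. The labels name no batch. The number of arrays limits precision.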

Additional observations from a re-analysis of the deposited data

Results flagged for a closer look

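One of 52 groups of 4 arrays had a value far from the other 3, where chance gives about 1 in 20. For Rnf2, a ubiquitin ligase of PRC1, G-CSF replicate 1 had a log2 intensity of 7.13 and the other 3 arrays titled G-CSF 7.49 to 7.53.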

How the results depend on the processing

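Of 25 member differences other than Scmh1, 14 kept their sign under every alternative run for them, Cbx7, Bmi1, Bap1 and the 3 brighter Rbbp7 probes under 20 and Phf19 under 19. With Scmh1 left out of the member count, the fit above called 2 member probes and 224 probes in all. These counts were 1 and 212 with normexp at an offset of 50, and 1 and 157 with no background correction or with the deposited log2 table. They were 0 and 4 with no filter on detection, and 1 and 203 with a trended, robust spread. Array weights gave 9 and 3776, and leaving out the 2 brightest arrays gave 0 and 0. The 9 were the probes of Cbx7, Bmi1, Phf19, Bap1, Pcgf3 and Eed and the 3 brighter Rbbp7 probes. Leaving out each array in turn gave 0 to 5 member probes and 1 to 1089 probes. With the replicate number as a block there were 0 and 4. The labels do not say whether the numbers pair the samples. Correlations of same-numbered deviations were -0.121, -0.021, 0.176 and 0.081, and 1 of 4 G-CSF arrays correlated best with its own number. Such correlations cannot decide whether the samples were paired. Where 0 members were called, 6 to 11 of the 25 had an unadjusted limma p under 0.05. In those settings 14.1% to 25.5% of all tested probes had such a p, and nothing about the set is read from these counts. Median scaling, which makes the median over all probes equal between arrays, gave a median difference of 0.29 over the 10205 tested probes. It called 856 probes (810 higher, 46 lower, against 97 and 127). Median scaling over the kept probes called 77 higher and 210 lower.

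Bmi1 went to -0.49 (adjusted p = 0.0511) with normexp and to -0.43 (0.0578) with no background correction or the deposited table. With no filter the adjusted p was 0.0837 for Cbx7 and 0.0729 for Bmi1, and with the trended, robust spread 0.0526 for Bmi1. Of the differences short of the threshold, 11 changed sign. Under median scaling these were Rnf2 (0.26), Rbbp7's dimmest probe (0.18), the dimmer Phc1 probe (0.19), Pcgf5 (0.12), Ezh2 (0.12) and Yaf2 (0.10), over kept probes Aebp2 (-0.0011), and with array weights Rnf2 (0.0529), Ring1 (-0.0566), Rbbp7's dimmest probe (0.0444) and Pcgf1 (-0.0237). Without the 2 brightest arrays they were Aebp2 (-0.13), the dimmer Phc1 probe (0.26), Pcgf6 (-0.27) and Phc2 (0.17). With 1 array left out, Aebp2 ranged from -0.12 to 0.17, Rnf2 from -0.12 to 0.10, Ring1 from -0.0858 to 0.0896, Pcgf6 from -0.0879 to 0.137, the dimmer Phc1 probe from -0.353 to 0.066 and Pcgf1 from -0.007 to 0.0853. The cause was not tested.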
